A study of Rattus norvegicus with 96 samples.

Results

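The central nucleus of the amygdala (CeA) was compared with the nucleus accumbens shell (NAc shell) in rats that had drunk ethanol. The 62 arrays whose titles name ethanol and one of these regions were taken, 31 from the CeA and 31 from the NAc shell, of 96 arrays in all. Every array held RNA of P rats, a line selectively bred for high alcohol preference, and was hybridised to an Affymetrix rat expression array. CeA arrays of ethanol rats numbered 11 at 1 h, 10 at 6 h and 10 at 24 h after the last drinking episode, and NAc shell arrays of ethanol rats numbered 10, 10 and 11 at these hours. The remaining 34 arrays came from rats without ethanol (called water rats here), 6, 5 and 6 from the CeA and 7, 5 and 5 from the NAc shell, and served as a check on arrays that the ethanol comparison did not use. The labels do not say whether arrays of both regions came from the same rats, or whether animals were pooled, so p-values measure the spread between these arrays.

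Both regions belong to the ventral forebrain and hold mostly GABA neurons. The NAc shell is the ventromedial part of the striatum, where medium spiny projection neurons carrying dopamine D1 or D2 receptors receive dopamine from the midbrain and take part in reward. The CeA is the main output nucleus of the amygdala, with neurons that make peptides such as corticotropin-releasing hormone, somatostatin and neurotensin, and it is known for its part in fear, stress and alcohol withdrawal.

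The deposited values are on a log2 scale, and the regions look to have been normalized apart, so a size limit was used. A probe set is an array feature group that reads one stretch of transcript. It was called higher or lower where limma's adjusted p was under 0.05 and the difference, CeA minus NAc shell over the mean of the 3 hours, was at least 1 log2. Lower quartiles ran from 5.75 to 5.88 on CeA arrays and from 6.01 to 6.16 on NAc shell arrays of ethanol rats. Between the 2 ends of the Gapdh control transcript, values differed by 2.92 ± 0.55 log2 on CeA arrays and by 1.79 ± 0.25 log2 on NAc shell arrays (SD, n = 31 each), and between those of beta-actin by 4.14 ± 0.24 and 3.17 ± 0.23. This measure of RNA length moved with the region. Its part in the results was looked at with it as a covariate, or with the 10 arrays per region closest in Gapdh end difference. Those 10 CeA arrays still spanned 2.19 to 2.45 log2, while the 10 NAc shell arrays spanned 1.90 to 2.24. The ranges barely overlap, so the closest arrays did not hold this measure equal. Neither approach can fully part it from the region. Against the other arrays of their region and treatment, 2 CeA and 3 NAc shell arrays of ethanol rats correlated lower than the rest and stand apart. Without these 5 arrays 1053 probe sets were called higher and 912 lower, against 1061 and 892 with them.

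Of 19677 probe sets tested in ethanol rats, 1061 were called higher in the CeA (5.39%) and 892 lower (4.53%). At any size, 16202 passed an adjusted p of 0.05 (82.3%), 7662 higher and 8540 lower, and the median difference over all tested probe sets was -0.03 log2. The median size of a call was 1.31 log2 above and -1.24 log2 below 0, and 185 calls reached 2 log2. Calls were alike in number at each hour, with 1093, 1103 and 1001 higher at 1, 6 and 24 h (5.55%, 5.61% and 5.09%) and 974, 912 and 863 lower (4.95%, 4.63% and 4.39%), and 832 higher and 721 lower at all 3 hours. Every CeA array lay above every NAc shell array for 742 probe sets (3.77%) and below for 1363 (6.93%). Counted as 1 probe set per gene, these shares were 3.17% above and 6.25% below. Of the 742 and 1363 probe sets, 288 and 761 were dim, with a mean under 8 log2. The median difference of all tested probe sets that dim was -0.15 log2. Of the calls, 375 of 1061 higher (35.3%) had a NAc shell mean and 303 of 892 lower (34%) a CeA mean under that region's filter limit (7.09 and 6.97 log2). Such probe sets were tested only through the region where they were bright, so a difference was bound to appear, and its size depends on the low end of the arrays. Many calls lie near the limit, since 428 probe sets had a size from 1 to under 1.1 and 606 that passed the adjusted p had a size from 0.9 to under 1.

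The water rats gave the same sign for every called probe set. In them 1059 probe sets were called higher (5.38%) and 996 lower (5.06%), and by 1 probe set per gene 4.46% higher and 3.95% lower. Arrays of water rats did not overlap for 7.07% of probe sets with the CeA above and for 10.7% with the CeA below. Of the calls in ethanol rats, 86.6% of those higher and 92.2% of those lower were also called in water rats, 919 and 822 probe sets, and 0 had the other sign there. Across the 19677 probe sets the differences in ethanol and water rats had a correlation of 0.979, given as a description, since probe sets are not independent and the arrays share their region's processing.

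**Figure D1:**
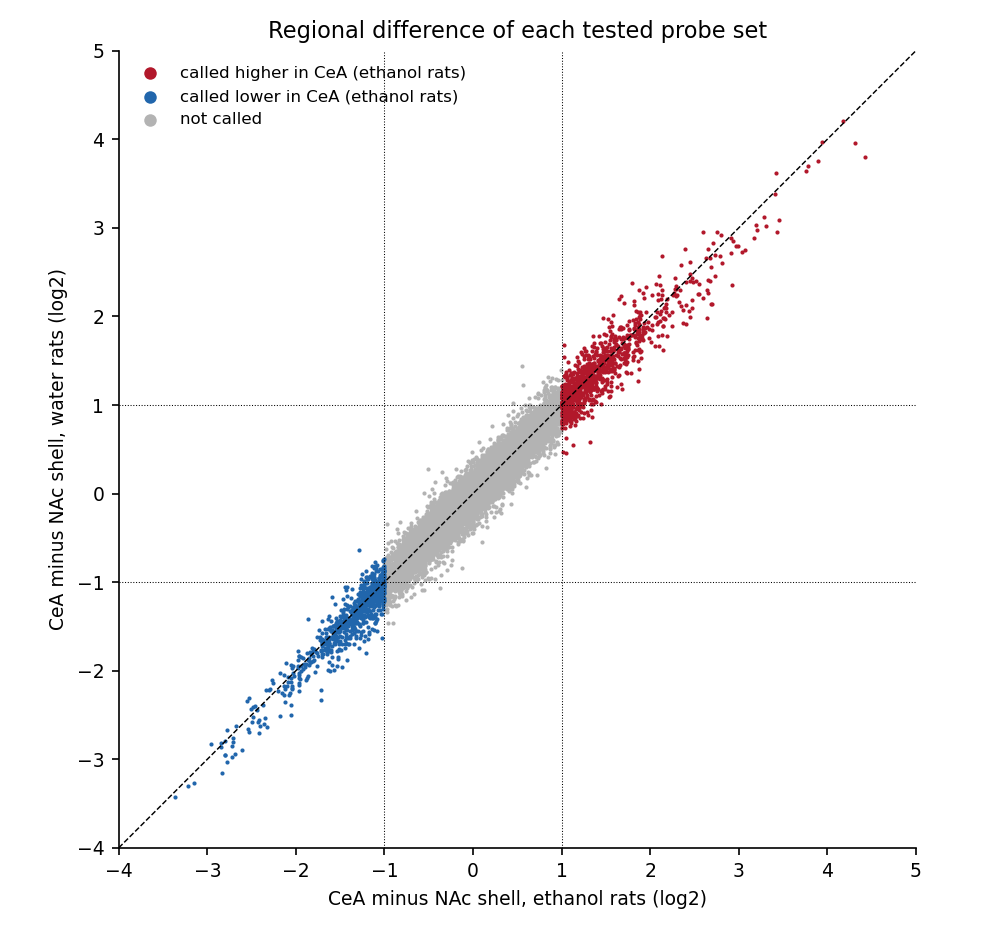
Difference between the regions (CeA minus NAc shell, log2) of each of 19677 tested probe sets in ethanol rats (horizontal) and water rats (vertical), with probe sets called in ethanol rats in red (higher) and blue (lower). The points follow the dashed line of equal differences, and the called probe sets keep their sign in water rats.

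Genes read by several probe sets gave a stricter view. Of 2572 genes with at least 2 tested probe sets, every probe set was called higher for 26 (1.01%) and lower for 34 (1.32%), while 264 were partly called higher, 162 partly lower and 7 had calls in both directions. In water rats every probe set was also called for 20 of the 26 and 29 of the 34 genes. Probe sets of partly called genes that missed the call had a median of 0.16 log2 for genes partly higher, with 250 of 376 above 0, and of -0.30 log2 for genes partly lower, with 162 of 222 below 0. Genes with a call in 1 direction only were called by every probe set in 8.97% of 290 cases when higher and in 17.3% of 196 cases when lower.

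Nr2f2, which encodes the transcription factor COUP-TFII, led the genes that every probe set called higher in the CeA. Its brighter probe set lay between 11.004 and 12.21 log2 on CeA arrays (median 11.55) and between 7.41 and 9.38 on NAc shell arrays (median 8.29). No CeA array overlapped with a NAc shell array. The difference was 3.19 ± 0.11 log2 (SE), or 9.13-fold, with an adjusted p of 6.07e-36, and the second probe set of Nr2f2, under the filter limit in the NAc shell, differed by 2.81 ± 0.07 log2. In water rats both probe sets were again higher in the CeA, by 3.03 and 2.61 log2.

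Kcnc2, a voltage-gated potassium channel of the Kv3 family found in fast-firing neurons, differed by 3.42 ± 0.08 log2 on one probe set and by 1.48 ± 0.13 on the other. Only the first kept the regions apart, with 7.79 to 9.73 log2 in the CeA, against 4.97 to 5.87 in the NAc shell. Those NAc shell values lie under the lower quartile of their arrays, so the size of 3.42 has no firm lower end, and the probe set was tested only through the CeA. Gnas, the stimulatory G protein alpha subunit of an imprinted locus with several transcripts, was higher by 1.57, 1.60 and 1.91 log2 on its 3 probe sets. The neuregulin gene Nrg1, an ErbB receptor ligand, was higher by 1.12, 1.56 and 2.65 log2 on 3 probe sets, and none of its CeA arrays overlapped with the NAc shell. The smallest of these missed the size limit with the 10 arrays per region closest in Gapdh end difference, at 0.94 log2, and all 3 NAc shell medians are under the filter limit. Gng2, a G protein gamma subunit, differed by 1.58 and 2.16 log2, and its second probe set gave 3.29 with those arrays and 3.41 with the Gapdh end difference as a covariate. Pkib, an inhibitor of protein kinase A, differed by 2.11 and 2.28 log2, but its highest NAc shell arrays reached 9.12 and 9.26 and overlapped with the CeA.

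The other genes higher by every probe set included Herc1, a large ubiquitin ligase, at 1.32 and 3.46 log2, and Lpgat1, a lysophospholipid acyltransferase, at 1.13 and 2.71. Ahi1, a gene of the primary cilium, differed by 1.49 and 2.14 log2. Plcxd2 differed by 1.43 and 2.02 log2, Pnma8b by 1.46 and 2.91, Tmem132c by 1.07 and 2.16, and the transcription factor gene Grhl1 by 1.27 and 2.08. The smaller Lpgat1 difference missed the size limit with the arrays closest in Gapdh (0.90), with the covariate (0.87) and in single CeA runs (lowest 0.74). The probe sets of a gene differed in size, so no single fold change per gene is given.

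Genes that every probe set called lower in the CeA were led by Nexn, an actin-binding protein gene, at -2.85 ± 0.14 and -2.50 ± 0.15 log2. Drd1, the dopamine D1 receptor, read 9.73 to 12.36 log2 in the CeA (median 11.40), against 12.67 to 14.13 in the NAc shell (median 13.82) on its brighter probe set. The groups did not overlap, and the difference was -2.33 ± 0.12 log2 with an adjusted p of 2.41e-26. Its second probe set gave -2.61 ± 0.12, and water rats gave -2.63 and -2.90. In a bulk tissue sample such a value cannot tell fewer cells of a type from less RNA per cell.

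Adora2a, an adenosine receptor of D2-type spiny neurons, was lower by every probe set as well. It had 7.60 to 10.91 log2 in the CeA (median 9.54), against 10.52 to 12.60 in the NAc shell (median 12.09), so the groups overlapped at their edges. Its differences were -2.42 ± 0.19 and -2.12 ± 0.11 log2. The phosphodiesterases Pde10a and Pde1b, which break down cyclic nucleotides in spiny neurons, gave -2.04 and -2.36 log2 and -2.04 and -1.92 log2. With the 10 arrays per region closest in Gapdh end difference, the dimmer probe set of Pde10a gave -1.08 log2 against -2.36 with all arrays, and that of Pde1b -1.18 against -1.92.

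Further genes lower by every probe set were Prkch, a protein kinase C, at -1.86 and -2.06 log2, the phosphatase gene Ptpn7 at -1.65 and -1.90, and Kctd1 at -1.69 and -1.85. Baiap2, a scaffold of dendritic spines, gave -2.13, -1.60 and -1.56 log2, and Gucy1a1, a subunit of the nitric oxide receptor guanylyl cyclase, -1.76 and -1.50. Rasd2, the striatal GTPase Rhes, gave -1.82 and -1.34 log2, and Rab40b -1.10 and -2.08. Alb, the serum protein albumin, was lower as well, at -1.84 and -1.65 log2. The dimmer Rasd2 probe set fell short of the size limit at -0.83 log2 with the arrays closest in Gapdh. So did the brighter Rab40b probe set at -0.90, while the dimmer Rab40b one gave -1.24.

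**Figure D2:**
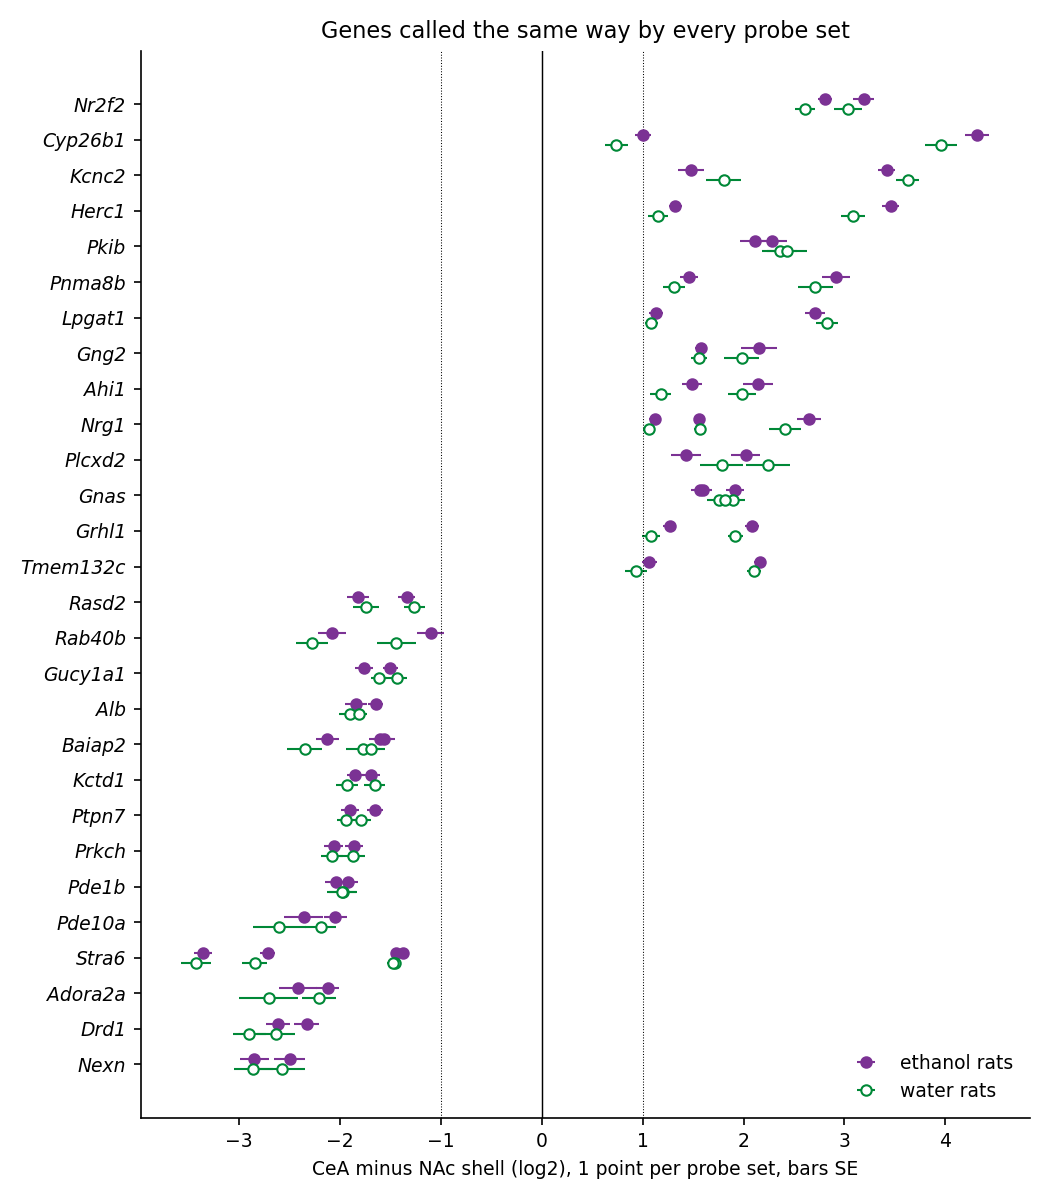
Difference between the regions (CeA minus NAc shell, log2, bars SE) for each probe set of the 14 genes most higher and the 14 most lower by every probe set, in ethanol rats (filled) and water rats (open). Dotted lines mark the size limit of 1 log2, which 1 probe set each of Cyp26b1 and Tmem132c missed in water rats.

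Genes of striatal projection neurons were counted by their probe set of highest mean, as were all lists below. Over all 10651 genes so counted, 4.21% were called higher and 3.76% lower in ethanol rats, with a median of -0.03 log2. Of 27 striatal genes tested 20 were lower in the CeA, 1 was higher and 6 were not called, with a median of -1.61 log2. Ppp1r1b, the protein phosphatase inhibitor DARPP-32, gave 9.34 to 11.91 log2 in the CeA (median 10.72), against 12.32 to 13.83 in the NAc shell (median 13.38), without overlap, for a difference of -2.68 ± 0.14. Rgs9, which ends dopamine receptor signals, differed by -2.80 ± 0.11 log2, Gpr6, an orphan receptor of D2-type neurons, by -2.78 ± 0.13, and Drd2 by -1.98 ± 0.11.

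The signalling enzymes of the same cells were lower too. Adcy5, the main striatal adenylyl cyclase, differed by -1.71 log2, the G protein subunits Gng7 and Gnal by -1.88 and -1.10, and the phosphatase Ptpn5 (STEP) by -1.36. Cnr1, the cannabinoid receptor CB1, was the 1 member called higher, by 1.28 ± 0.10 log2, but its second probe set gave 0.55. Cnr1 read 12.27 to 13.58 log2 in the CeA, against 11.09 to 13.52 in the NAc shell, so the groups overlapped. Drd3 was on the array but under the level needed for a test.

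**Figure D3:**
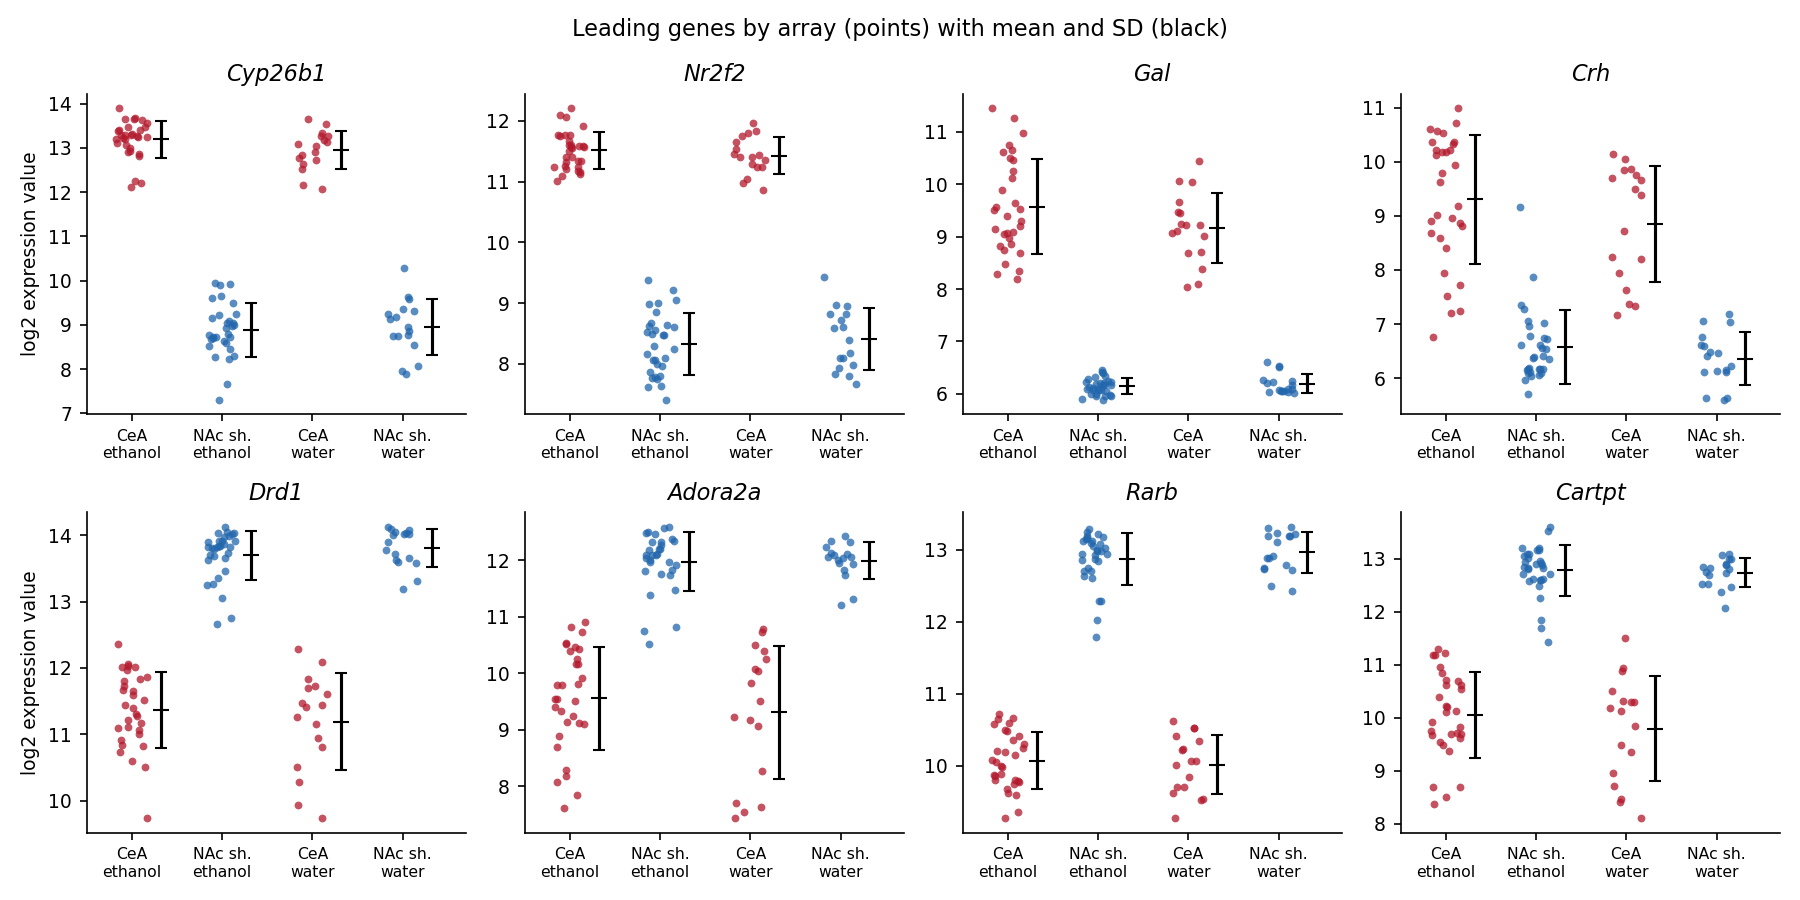
Log2 value of 8 genes on each array, by region and treatment (CeA left of NAc shell, ethanol left of water), with the mean and SD in black. Cyp26b1, Nr2f2 and Gal are higher on every CeA array than on any NAc shell array, Drd1, Rarb and Cartpt are lower, and Crh and Adora2a overlap in ethanol rats.

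Peptide transmitters differed in both directions. Of 27 neuropeptide genes tested 5 were higher in the CeA, 5 lower and 17 not called, with a median of -0.09 log2. Gal, which encodes galanin, read 8.19 to 11.45 log2 in the CeA (median 9.39), against 5.89 to 6.46 in the NAc shell (median 6.13). The groups did not overlap, and the difference was 3.43 ± 0.17 log2. The NAc shell values of Gal lie at the lower quartile of the arrays and under the filter limit, so Gal was tested only through the CeA and no fold is given. The CeA arrays spread more widely, with an SD of 0.91 log2 against 0.15 in the NAc shell (n = 31 each).

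Crh, the corticotropin-releasing hormone gene, read 6.76 to 10.99 log2 in the CeA (median 9.63), against 5.71 to 9.17 in the NAc shell (median 6.39). The groups overlapped, and the highest NAc shell array, at 1 h, is 1 of the 5 that stand apart. NAc shell means of 6.66, 6.70 and 6.39 log2 at 1, 6 and 24 h were under the filter limit. Crh was thus tested only through the CeA, and a difference was bound to appear. Its difference was 2.73 ± 0.24 log2 with an adjusted p of 6.78e-16, and 2.98 without those 5 arrays. Over the 4 runs of title numbers into which the CeA arrays fall, it ranged from 1.38 to 3.38. Pnoc, the nociceptin precursor, was higher by 1.50 ± 0.13 log2, and the synaptic organisers Cbln1 and Cbln2 by 1.35 ± 0.15 and 1.59 ± 0.10.

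Lower in the CeA were Cartpt, Npy, Tac1, Nxph4 and Pdyn. Cartpt, the appetite and reward peptide CART, read 8.38 to 11.30 log2 in the CeA (median 10.12), against 11.44 to 13.61 in the NAc shell (median 12.85), a difference of -2.72 ± 0.16. Npy, the gene of neuropeptide Y, which striatal interneurons make, read 8.25 to 9.99 log2 in the CeA (median 9.09), against 11.11 to 12.43 in the NAc shell (median 11.79), a difference of -2.71 ± 0.09. Tac1, the substance P precursor, differed by -2.50 ± 0.12 log2. No array of either region overlapped for these 3 genes.

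Several peptides and markers that textbook accounts place in the CeA were not called higher there. Nts, neurotensin, gave -0.49 ± 0.14 log2 and Sst, somatostatin, -0.19 ± 0.12 with an adjusted p of 0.149. Sst turned to 0.35 with the Gapdh end difference as a covariate and to 0.25 with the arrays closest in it. Pdyn, the dynorphin precursor, was called lower at -1.02 ± 0.11 log2, close to the limit, and Penk, the enkephalin precursor, gave -0.68 ± 0.09, under it. Prkcd, a kinase that marks a class of CeA neurons, was 9.13 to 10.36 log2 in the CeA (median 9.72), against 8.39 to 9.65 in the NAc shell (median 8.83). Its difference of 0.86 ± 0.08 log2 passed the adjusted p but not the size limit. Of 13 marker genes of CeA neurons 5 were called higher, 1 lower and 7 not called, with a median of 0.33 log2.

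Receptors for peptides held 6 genes higher and 4 lower among 25 tested, with a median of -0.03 log2. Tacr3, the neurokinin B receptor, read 7.47 to 8.39 log2 in the CeA, against 5.03 to 7.10 in the NAc shell. The difference was 2.07 ± 0.10 without overlap, but the NAc shell mean was under the filter limit, so Tacr3 was tested only through the CeA. The galanin receptor Galr2 was higher by 1.85 ± 0.15 log2 and Galr3 lower by -1.06 ± 0.03. Somatostatin receptors also went both ways, with Sstr1 at 1.47 ± 0.13, Sstr2 at 1.29 ± 0.12 (0.24 on its other probe set) and Sstr4 at -1.34 ± 0.05. Galr3 and Sstr4 are dim probe sets, with CeA medians of 6.93 and 6.77 log2, under the CeA filter limit of 6.97. Their lower values thus depend on the low end of the arrays. After joint quantile normalization of all arrays Galr3 missed the size limit at -0.98. Ramp1, a partner of the calcitonin gene-related peptide receptor, gave -1.33 ± 0.08 log2, Trhr 1.20 ± 0.13 and the nociceptin receptor Oprl1 1.10 ± 0.08.

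Retinoic acid is a vitamin A product that acts through nuclear receptors. Cells take up retinol through Stra6, oxidise it through Rdh10 and Aldh1a enzymes, and degrade retinoic acid through Cyp26 enzymes. Of 15 genes of this pathway tested 2 were higher in the CeA and 4 lower, with a median of -0.65 log2. The degrading enzyme Cyp26b1 had the largest difference of any probe set that carries a gene name. It read 12.11 to 13.90 log2 in the CeA (median 13.26), against 7.31 to 9.95 in the NAc shell (median 8.80), without overlap, for a difference of 4.31 ± 0.12 log2 or 19.9-fold (adjusted p 5.51e-40). Its second, dimmer probe set gave 1.00 ± 0.08 log2 in ethanol rats and 0.74 ± 0.12 in water rats, and 0.87 in ethanol rats with the Gapdh end difference as a covariate. The synthesising enzyme Aldh1a1 was higher by 1.23 ± 0.15 log2.

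The receptor and uptake genes lay the other way. Rarb, the retinoic acid receptor beta, read 9.27 to 10.72 log2 in the CeA (median 10.05), against 11.79 to 13.29 in the NAc shell (median 12.98), without overlap, a difference of -2.80 ± 0.09. Stra6 was lower on all 4 of its probe sets, by -1.38 ± 0.04, -1.45 ± 0.04, -2.72 ± 0.08 and -3.36 ± 0.09 log2, and no array overlapped on any of them. The last of these read 4.50 to 5.22 log2 in the CeA, close to the lower end of the array. The probe set at -2.72 had CeA means of 6.363, 6.445 and 6.578 log2 at 1, 6 and 24 h. Both probe sets were under the CeA filter limit. They were thus tested only through the NAc shell, and a difference was bound to appear. Rbp4, the retinol carrier that Stra6 binds, differed by -1.70 ± 0.09 log2 and Rdh10 by -1.53 ± 0.10. The receptors Rxrg and Rara, at -0.91 ± 0.12 and -0.90 ± 0.04, stayed under the size limit.

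The promoters of the 3 retinoid genes with the largest differences are shown for comparison, as windows of 300 bases from 250 before to 50 after the gene start, read 5′ to 3′ on the gene's strand from RefSeq for GRCr8. Capitals mark GTTCA, any 5 bases and AGTTCA in a row, a spaced direct repeat that retinoic acid receptors are known to bind, searched on both strands. Rarb lies at chr15:11336142-11336441 on the plus strand, Stra6 at chr8:67444507-67444806 on the plus strand and Cyp26b1 at chr4:118616127-118616426 on the minus strand.
Rarb: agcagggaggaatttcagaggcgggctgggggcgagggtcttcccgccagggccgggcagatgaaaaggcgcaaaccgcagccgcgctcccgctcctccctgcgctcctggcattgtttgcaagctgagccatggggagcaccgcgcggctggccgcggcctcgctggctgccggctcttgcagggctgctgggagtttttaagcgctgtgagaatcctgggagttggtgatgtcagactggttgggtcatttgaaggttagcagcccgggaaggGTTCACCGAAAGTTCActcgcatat
Stra6: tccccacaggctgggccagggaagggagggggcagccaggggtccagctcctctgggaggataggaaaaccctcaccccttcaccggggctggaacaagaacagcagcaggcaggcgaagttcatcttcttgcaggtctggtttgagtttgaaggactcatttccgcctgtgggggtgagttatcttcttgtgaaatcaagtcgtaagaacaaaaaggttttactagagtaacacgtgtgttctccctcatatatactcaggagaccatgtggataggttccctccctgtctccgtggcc
Cyp26b1: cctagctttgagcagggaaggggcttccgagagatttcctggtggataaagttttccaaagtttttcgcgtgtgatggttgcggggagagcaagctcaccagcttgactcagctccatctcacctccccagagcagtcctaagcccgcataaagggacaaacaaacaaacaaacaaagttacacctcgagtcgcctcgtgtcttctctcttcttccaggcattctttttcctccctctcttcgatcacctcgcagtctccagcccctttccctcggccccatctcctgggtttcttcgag
The repeat occurs 1 time in the Rarb window, starting 25 bases after the gene start, and not in those of Stra6 and Cyp26b1. Of all 33469 rat promoter windows, 9 hold it (0.0269%). A match describes the letters only, and no match says only that these letters are not in this window.

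Among the peptide genes, Cartpt lies at chr2:32991186-32991485 on the minus strand, and its window is printed because it holds the palindrome TGACGTCA (capitals), the binding sequence of the cyclic AMP response factor CREB, searched likewise.
Cartpt: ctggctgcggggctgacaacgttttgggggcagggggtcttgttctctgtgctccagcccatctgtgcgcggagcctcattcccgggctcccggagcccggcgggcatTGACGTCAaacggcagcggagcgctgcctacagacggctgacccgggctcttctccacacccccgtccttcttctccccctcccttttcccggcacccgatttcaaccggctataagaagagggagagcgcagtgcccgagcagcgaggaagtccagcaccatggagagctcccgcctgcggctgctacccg
The palindrome starts at -142 from the gene start and is found in 612 of 33469 windows (1.83%), but not in those of Npy, Tac1 and Gal.

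Transcription factors of the forebrain also split. Of 31 tested 8 were higher in the CeA and 3 lower, with a median of -0.27 log2. Beside Nr2f2, its relative Nr2f1 was higher by 1.38 ± 0.06 log2, Pax6 by 1.88 ± 0.11, Npas1 by 1.65 ± 0.17, Rora by 1.44 ± 0.09, Ebf1 by 1.41 ± 0.09, Nfix by 1.36 ± 0.08 and Zeb2 by 1.22 ± 0.13. Nr2f1 read 8.67 to 9.30 log2 in the CeA, against 7.21 to 8.47 in the NAc shell, without overlap. One further Nfix probe set gave -0.26, so its difference was not shared, and further probe sets of Ebf1 and Zeb2 gave 0.68 and 0.96, under the size limit.

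Foxp2 and Foxp1, forkhead factors of spiny neurons, were the lowest of this list. Foxp2 read 8.57 to 10.74 log2 in the CeA (median 9.57), against 10.56 to 12.54 in the NAc shell (median 11.99), a difference of -2.42 ± 0.11. The groups overlapped only through 1 CeA array and 1 NAc shell array, both at 6 h. Foxp1 was called lower on 4 of 5 probe sets, by -1.97, -1.71, -2.29 and -1.77 log2, and gave -0.97 on the other, under the size limit. Dlx5, a factor of GABA neurons, gave -1.40 ± 0.10.

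Of 35 potassium channel genes 9 were lower in the CeA, 2 higher and 24 not called, with a median of -0.34 log2. Kcnj4, an inward rectifier, read 6.61 to 8.50 log2 in the CeA (median 7.60), against 8.61 to 10.34 in the NAc shell (median 9.73), a difference of -2.05 ± 0.12 without overlap. The others lay between -1.23 (Kcnv1) and -1.01 log2 (Kcnq5), among them the large calcium-activated channel Kcnma1 at -1.14 (-0.37 on its other probe set). Kcnj6 was higher by 1.53 ± 0.17 log2 on one probe set and differed by -0.46 on another.

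Genes of GABA and glycine transmission held 3 higher and 1 lower of 15, with a median of 0.34 log2. Glra2, a glycine receptor subunit, read 11.84 to 12.87 log2 in the CeA (median 12.40), against 8.83 to 11.61 in the NAc shell (median 10.58), a difference of 1.87 ± 0.10 without overlap. Gabre was higher by 1.71 ± 0.08 log2 and Gabra2 by 1.14 ± 0.11, and Gabra2 gave 0.86 in water rats. Gabrd, the delta subunit of extrasynaptic receptors, was lower on 3 probe sets, by -1.96, -1.48 and -1.06 log2. Of 18 glutamate receptor genes 3 were higher and 3 lower. The kainate receptor subunit Grik1 differed by 2.29 ± 0.08 log2, with 8.42 to 9.57 in the CeA, against 5.90 to 7.59 in the NAc shell. Those NAc shell values reach below that region's filter limit of 7.09 log2, so the size of 2.29 depends in part on the low end of the arrays.

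Of 12 monoamine and acetylcholine receptor genes tested, Adra2a was higher, by 1.09 ± 0.11 log2, and Chrm4, Htr4 and Adra2c lower, by -1.50 ± 0.10, -1.45 ± 0.14 and -1.12 ± 0.07. Among calcium-binding proteins and protein kinases C, Hpca, the calcium sensor hippocalcin, read 9.51 to 11.18 log2 in the CeA, against 11.50 to 13.20 in the NAc shell, a difference of -2.33 ± 0.10. Of 18 such genes 1 was higher and 3 lower.

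Axon guidance and adhesion genes held 5 higher and 7 lower of 52, with a median of 0.03 log2. Pcdh19, a protocadherin, read 10.16 to 11.85 log2 in the CeA (median 11.16), against 7.80 to 9.04 in the NAc shell (median 8.19), a difference of 2.91 ± 0.08. Epha5, an ephrin receptor, was higher by 2.64 ± 0.11 log2 and the semaphorin Sema3c by 1.68 ± 0.18. Epha3 and Epha7 were lower on both of their probe sets, by -1.44 and -1.21 log2 and by -1.36 and -1.16. Flrt3, Cdh8, Ntn1 and Flrt1 differed by -1.70, -1.67, -1.64 and -1.49 log2. The remaining gene counted as lower, the guidance cue Slit2, gave -1.22 ± 0.09 log2 on one probe set and 1.21 ± 0.10 on the other, both called.

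Of 17 immediate early genes tested, which neuronal activity induces, 6 were lower in the CeA, 0 higher and 11 not called, with a median of -0.65 log2. Fosb read 6.98 to 10.23 log2 in the CeA (median 8.96), against 8.68 to 11.22 in the NAc shell (median 10.67), a difference of -1.72 ± 0.16, and Arc differed by -1.57 ± 0.15. Both overlapped between the regions. Jun lay the other way at 0.90 ± 0.06, under the size limit. Of 16 circadian clock genes 0 were called.

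Markers of glia leaned to the CeA for oligodendrocytes. Of 15 tested 5 were higher (Ugt8, Opalin, Gal3st1, Enpp6 and Mag, by 1.34, 1.15, 1.08, 1.07 and 1.01 log2), 0 were lower and the median was 0.88 log2. Their summed level ran from 15.94 to 17.08 log2 on CeA arrays and from 15.62 to 16.56 on NAc shell arrays, so the groups overlapped. Of 13 astrocyte genes 2 were higher, Gfap by 1.93 ± 0.14 log2 and Gjb6 by 1.61 ± 0.09, with summed levels of 16.26 to 16.79 in the CeA, against 16.04 to 16.75 in the NAc shell. Of 9 microglia genes Ptprc and Aif1 were higher, by 1.74 and 1.25 log2, and Trem2 lower by -1.01, and a second Aif1 probe set gave -0.63. The part of glial content in the other differences was not tested.

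**Figure D4:**
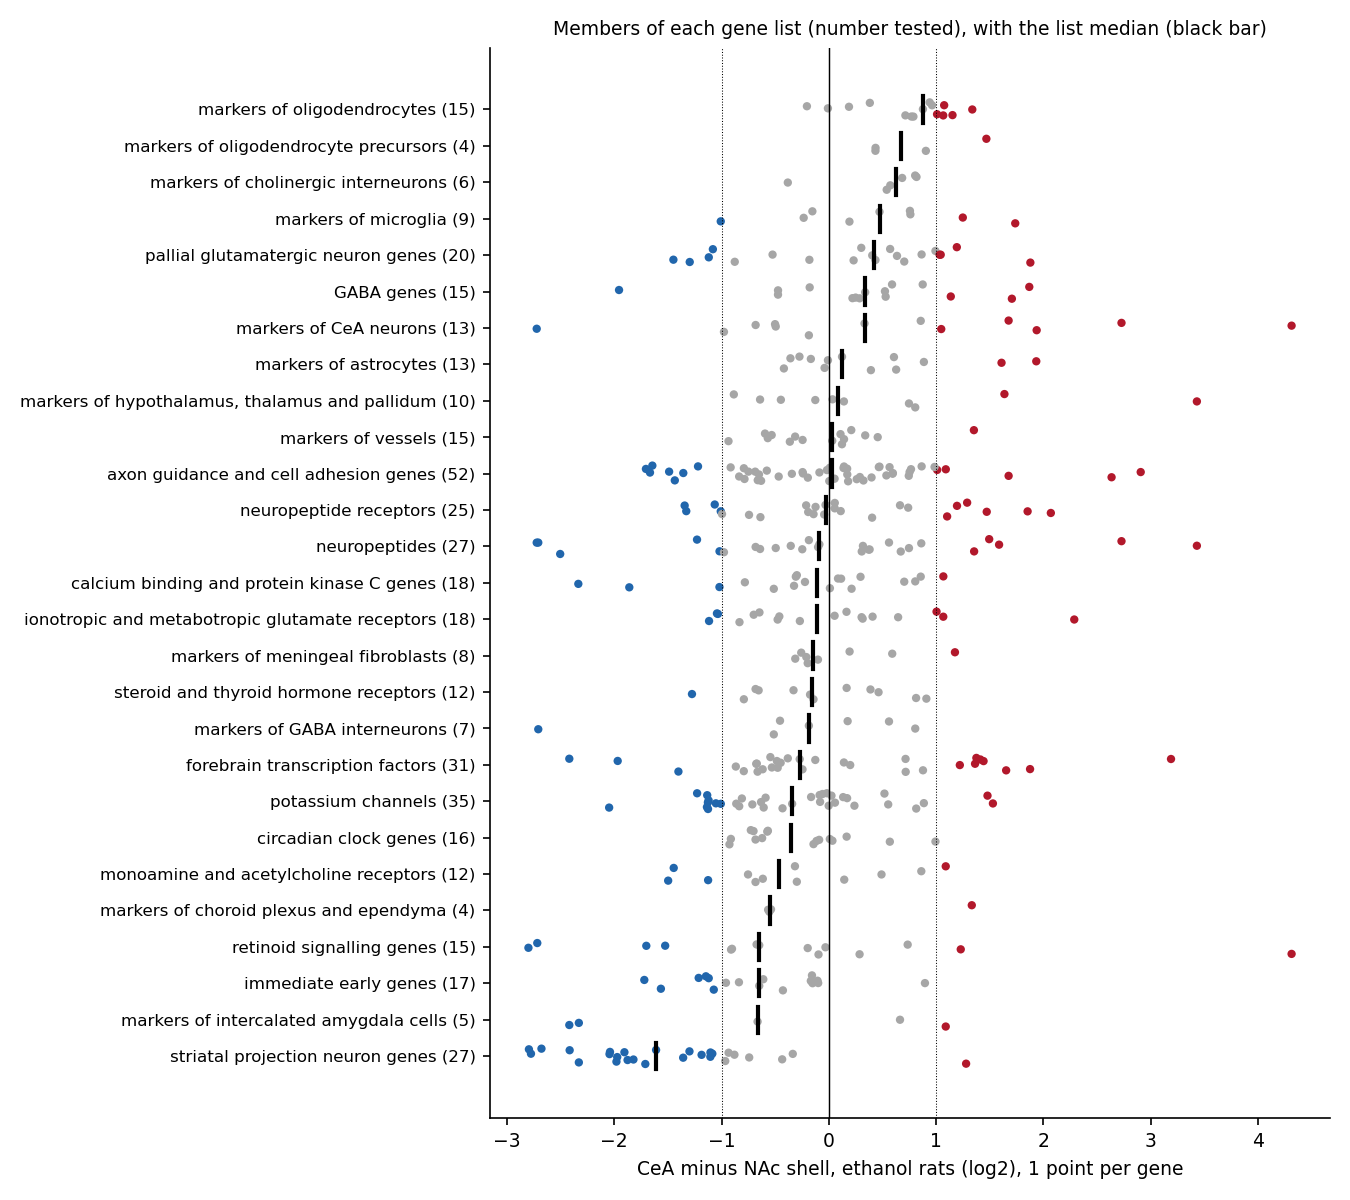
Difference between the regions (CeA minus NAc shell, log2, ethanol rats) of each member of 27 gene lists, 1 point per gene, red where called higher and blue where called lower, with the median of each list as a black bar. Striatal projection neuron genes have the lowest median (-1.61) and oligodendrocyte markers the highest (0.88), and most other lists hold members on both sides of 0.

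Genes of neighbouring tissue were read on single arrays in both regions. Slc17a7, the glutamate transporter gene of cortex and basolateral amygdala, was under the level needed for a test, with medians of 6.14 log2 in the CeA, against 6.62 in the NAc shell on one of its probe sets. There it reached 9.92 on 1 CeA array and 11.39 on 1 NAc shell array, both at 6 h. The cortical gene Neurod6 reached 9.51 and 10.16 on the same arrays, against medians of 5.53 and 5.67. Slc17a6, the transporter of subcortical glutamate neurons, was called higher by 1.88 ± 0.29 log2 but ran from 8.16 to 11.77 on CeA arrays and from 6.02 to 11.50 on NAc shell arrays. Oxt, a hypothalamic peptide, reached 9.53 log2 on 1 CeA array at 1 h, against a median of 6.26. Among 20 pallial glutamatergic genes 4 were higher and 4 lower, among 10 genes of hypothalamus, thalamus and pallidum 2 were higher (Gal, and Irx1 by 1.64 log2), and of 5 genes of intercalated amygdala cells Adra2a was higher and Foxp2 and Drd1 lower. Neurod2, at -1.08 ± 0.06, is dim and missed the size limit at -0.99 after joint quantile normalization and at -0.96 with the Gapdh covariate.

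The smaller lists held few calls. Genes of cholinergic interneurons had 0 calls of 6, with Chat at 0.82 ± 0.21 log2, those of GABA interneurons 1 of 7 (Npy), and those of vessels 1 of 15 (Kdr, at 1.35 ± 0.05). Meningeal, choroid plexus and oligodendrocyte precursor lists, with 8, 4 and 4 tested, each had 1 higher and 0 lower. These were Lum by 1.18, Enpp2 by 1.33 and Lhfpl3 by 1.47 log2. The list medians were -0.15, -0.55 and 0.67 log2. The other choroid plexus genes, Ttr, Prlr and Dynlrb2, lay below 0 at -0.54, -0.57 and -0.55, so the called gene does not stand for its list. Of 12 steroid and thyroid hormone receptor genes 1 was lower, Nr4a1 by -1.28 ± 0.11.

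Genes with a single tested probe set added further large differences. Higher in the CeA were Prss35, a serine protease homologue, by 2.80 ± 0.14 log2, Ngfr, a neurotrophin receptor, by 2.76 ± 0.22, the RNA-binding protein gene Igf2bp3 by 2.69 ± 0.05, Arhgap5 by 2.67 ± 0.13 and Fam13a by 2.66 ± 0.07. Ngfr read 7.23 to 10.88 log2 in the CeA (median 8.85), against 5.45 to 8.19 in the NAc shell (median 5.96), with overlap, and over the CeA runs its difference ranged from 1.90 to 4.29. Igf2bp3 read 4.95 to 5.65 log2 in the NAc shell, under the lower quartile of those arrays. NAc shell means of Igf2bp3 and Ngfr were under the filter limit, so both were tested only through the CeA. Lower were Rd3l by -2.96 ± 0.11, Plac9 by -2.84 ± 0.12 and Meox2, a homeobox gene, by -2.80 ± 0.12 log2. The CeA medians of these 3 were 5.16, 5.57 and 4.95, under the lower quartile of the CeA arrays and under the filter limit. They were thus tested only through the NAc shell, a difference was bound to appear, and its size has no firm end.

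The regional difference was also tested against the hour after drinking. In the test of region by hour 0 of 19677 probe sets passed (0.0%), with 166 under an unadjusted p of 0.05 and a smallest adjusted p of 0.478. Chance alone would put more than 166 there, so the test was strict and 0 passing does not show a difference steady over the hours. With the CeA runs as fixed terms 1 probe set passed, at limma's adjusted p of 0.0379. In water rats 0 passed and 1003 were under an unadjusted 0.05. Named genes with the smallest p were Steap3, Zfp68, Stard8, Rpap3, Elf3, Slc4a7, C1qtnf12 and Stk4, and each had an adjusted p of 0.9999. Steap3, for instance, differed by -0.86, -0.75 and -0.49 log2 at 1, 6 and 24 h.

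The regional difference differed between ethanol and water rats for 1 probe set of 19677 (0.00508%), with 1789 under an unadjusted p of 0.05. Those 1789 are more than chance alone would give on average. With array quality weights more passed, and after joint quantile normalization 0 passed. That probe set, which has no gene name here, averaged 7.95 ± 0.30 in CeA and 7.02 ± 0.12 in NAc shell of ethanol rats (SD, n = 31 each) and 7.49 ± 0.33 in CeA and 7.05 ± 0.14 in NAc shell of water rats (SD, n = 17 each). Its regional difference was 0.93 ± 0.05 log2 in ethanol rats and 0.45 ± 0.09 in water rats, and these differed by 0.48 ± 0.09 with limma's adjusted p of 0.0402. Khsrp, Rpap3, Uqcrc1, Cs, Nefl and Eif3a came next and did not pass, with adjusted p from 0.203 to 0.434. For Khsrp the difference was 1.86 log2 in ethanol rats and 1.27 in water rats, and -0.58 and -0.64 on its other probe set.

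Of the 2572 genes with several probe sets, 7 had calls in both directions. Igfbp5, an insulin-like growth factor binding protein, gave -2.09 ± 0.06, 0.47 ± 0.08 and 1.24 ± 0.08 log2 on 3 probe sets. Nsrp1, a splicing regulator, gave -1.58 ± 0.03 and 2.25 ± 0.06, and Xrn2, a nuclear RNA exonuclease, -1.21 ± 0.08 and 1.42 ± 0.10. Osbpl1a, Pcnx4, Zrsr2 and Slit2 showed the same kind of split. The Igfbp5 probe set at -2.09 had a CeA mean of 6.11 log2 and the Nsrp1 probe set at 2.25 a NAc shell mean of 5.55. Both means were under the filter limit, so these probe sets were tested only through the other region and a difference was bound to appear. The same held for called probe sets of Osbpl1a, Pcnx4 and Zrsr2, but not of Slit2 and Xrn2. In water rats the called probe sets of the 7 genes kept their sign, for example -2.13 and 1.13 log2 at the ends of Igfbp5.

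Each ethanol array was also placed between the region means of the water rats, over the 2055 probe sets called in water rats, with 0 at the NAc shell mean and 1 at the CeA mean. CeA arrays lay between 0.845 and 1.21 (median 0.983) and NAc shell arrays between -0.149 and 0.330 (median 0.00179). The groups did not overlap, so no array went against its labelled region. The highest NAc shell positions, 0.330, 0.297 and 0.226, belonged to 1 array at each hour, and the arrays at 0.330 and 0.226 are among those that stand apart. On the array at 0.226, at 1 h, Crh read 9.17 log2 against 6.62 on the next array of its hour, Gnas 13.48 against 12.32, and Drd1, Pde10a and Rarb were the lowest of their hour. Other genes called higher in the CeA did not follow on that array. Cyp26b1 was the lowest of its hour at 7.66 log2, and Nr2f2 at 8.50, Gal at 6.35 and Nrg1 at 5.72 lay inside the range of the other NAc shell arrays.

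**Figure D5:**
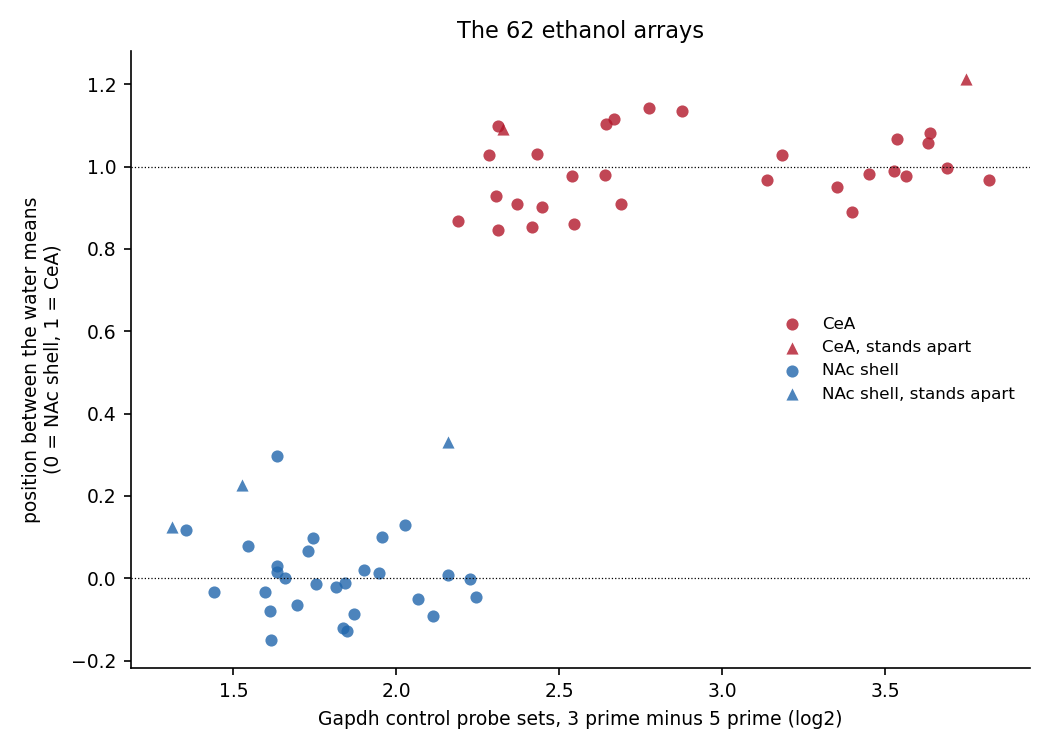
Position of each of the 62 ethanol arrays between the NAc shell mean (0) and the CeA mean (1) of water rats (vertical), against how far its Gapdh control values differ from the 3 prime to the 5 prime end (horizontal, log2), with triangles for arrays that stand apart. Within the CeA the positions stay between 0.845 and 1.21 while the Gapdh difference runs from 2.19 to 3.82.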

How the data were processed

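The values analysed were log2 expression values of 31099 probe sets on 96 arrays as the authors deposited them, made with RMA per the submitters' processing notes. Its version and the arrays normalized together are not given in the sources used here. From these values 57 control probe sets were left out, and probe sets were named by the platform annotation through Entrez IDs, 20826 with 1 symbol, 436 with several and 9780 with none. A probe set was tested where its mean over the ethanol arrays of at least 1 region passed that region's 40th percentile (6.97 log2 in the CeA, 7.09 in the NAc shell), which left 19677.

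Differences were fitted with limma 3.58.1 in R 4.3.3 (lmFit and eBayes with trend) on group means of region and hour, with Benjamini-Hochberg adjustment over all tested probe sets. A call needed an adjusted p under 0.05 and a size of at least 1 log2. Water arrays were fitted apart, and all 96 arrays together for region by drinking. The fits were tested on simulated data. Array signal limits the precision, as does the number of arrays.

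The members and gene lists were chosen with earlier results of these data known. Named were the 14 genes per direction with the largest mean difference among those called by every probe set, the 8 per direction with 1 probe set, the genes with the smallest p for hour (8) and drinking (6), the 6 widest mixed genes, and up to 6 called members per list and direction with the defining genes. Genes outside that rule (Adcy5, Gng7, Gnal, Ptpn5, Rxrg, Rara, Zeb2, Nfix, Kcnq5, Jun, Chat, Penk, Oxt, Neurod6 and Slit2) were chosen after their values were seen. Alternatives were other normalizations, filters, weights, size limits, a Gapdh covariate, arrays left out and runs of title numbers.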

Additional observations from a re-analysis of the deposited data

Results flagged for a closer look

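In 24 named probe sets, 28 of 240 groups of arrays held 1 array far from the others of its region, treatment and hour (11.7%), where chance gives about 5%. Of these, 13 were values of 1 array, NAc shell array 33 of ethanol rats at 1 h, which stands apart. It read lowest of 10 for Drd1 at 12.67 log2, Adora2a at 10.82, Pde10a at 11.37, Ppp1r1b at 12.58, Drd2 at 10.39, Rarb at 12.02, Stra6 at 7.99, Cyp26b1 at 7.66, Cartpt at 11.44, Foxp1 at 11.31 and Foxp2 at 10.92. It read highest for Crh at 9.17 and Gnas at 13.48 log2.

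At 6 h in ethanol rats, NAc shell array 43 was lowest for Pde10a at 11.08 log2, Ppp1r1b at 12.32, Cartpt at 11.69 and Tac1 at 9.10, and NAc shell array 44 for Foxp2 at 10.56. Both stand apart. CeA array 10 of ethanol rats at 6 h was highest for Pde10a at 11.52 and Foxp2 at 10.74 log2.

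In water rats, far values were Stra6 at 6.83 log2 and Tac1 at 8.51 in the CeA, both highest, at 6 and 24 h. In the NAc shell, Adora2a at 11.32 (6 h) and Foxp2 at 11.56 (1 h) were lowest, and Gal at 6.51 (1 h), Nrg1 at 6.43 (1 h), Prkcd at 9.08 (6 h) and Ngfr at 7.02 (24 h) highest. The regional difference of 1 unnamed probe set was 0.48 log2 larger in ethanol rats than in water rats, by the test of that difference.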

How the results depend on the processing

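No paired analysis was possible because the labels do not say which arrays came from the same rat. Title numbers run on from CeA to NAc shell arrays within a treatment, so they do not tell either way. With a size limit of 0.5 log2, 3315 probe sets were higher and 3695 lower in the CeA of ethanol rats, and 137 and 169 genes by every probe set. With a limit of 2 log2 these were 116, 69, 2 and 4. A filter at the 60th percentile, which tests fewer probe sets, gave 674, 531, 16 and 22, and 686 higher and 613 lower in water rats. With the 6 CeA arrays of the last run of title numbers alone, 1382 probe sets were lower, and 55 genes were higher and 55 lower by every probe set. The cause was not tested. Joint quantile normalization gave 1138 higher and 796 lower, and centring each array on its median 1198 and 779. The probe set that passed for region by drinking did not do so everywhere: 0 passed after joint quantile normalization, after centring and with the 60th percentile filter, 2 without a filter and 57 with array quality weights. For region by hour 1 passed with the CeA runs as fixed terms. Leaving out each water array in turn gave 1029 to 1119 higher and 958 to 1046 lower. Sst turned to 0.35 with the Gapdh covariate, to 0.57 and 0.022 with the first and the second CeA run alone, and to 0.25 with the 10 arrays per region closest in Gapdh. Nts turned to 0.015 with the first run alone. Of 747 values of named probe sets under alternatives, 717 kept their direction and side of the threshold, 23 lost the call, 2 gained it and 5 turned. The arrays closest in Gapdh and the named genes by single run were added after seeing the data. Signal near the low end limits dim probe sets: the 5023 with a mean under 8 log2 had a median difference of -0.15, and -0.06 after joint quantile normalization.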
